A study of Mus musculus with 18 samples.

Results

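The genes described here encode, in the nucleus, the subunits of the respiratory chain and the ATP synthase of mouse kidney. They were chosen by symbol (Nduf, Sdh, Uqcr, Cox4 to Cox8 and Atp5), and a gene was kept where it reached 1 FPKM (fragment counts scaled to transcript length and library size) in at least 3 of 18 libraries. Of 84 matching symbols 81 were kept, among 20825 genes in the table. They comprise 37 genes of complex I, 4 of complex II, 8 of complex III, 15 of complex IV and 17 of complex V. Cox7b2, Cox8b and Cox8c were below the filter. Of the 81 members 78 reached 1 FPKM in all 18 libraries, while Ndufa4l2 did so in 16, Cox4i2 in 11 and Cox6a2 in 6. The prefixes do not follow present knowledge throughout. Ndufa4, of which Ndufa4l2 is a relative, is now placed in complex IV. The RefSeq gene table lists Atp5s and Atp5sl as Dmac2l and Dmac2. These genes are kept under their prefix.

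The animals were C57BL/6 mice of 11 weeks. In the UIR groups (unilateral ischemia and reperfusion) a clamp closed the pedicle of the right kidney for 45 minutes and was then released, with the left kidney untouched. The controls had a sham operation. Kidneys were taken at days 1, 3 and 21 after surgery from 3 UIR and 3 sham mice per day, which gives 6 groups and 18 RNA sequencing libraries, called biological replicates in the labels. The labels do not say which kidney of the UIR mice was sequenced. The mean summed FPKM of 6 tubular injury genes was 3969, 1728 and 754 in UIR kidneys at days 1, 3 and 21. In sham kidneys it was 282, 12.1 and 10.5. An intact left kidney can keep up renal function in this model, which was not among the data used here.

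Complex I (NADH dehydrogenase) and complex II (succinate dehydrogenase) pass electrons to coenzyme Q. Complex III hands them to cytochrome c and complex IV (cytochrome c oxidase) to oxygen. Complexes I, III and IV pump protons, and complex V (ATP synthase) uses the proton gradient to make ATP. The proximal tubule, which reabsorbs most of the filtrate, relies on this pathway and is rich in mitochondria. The subunits encoded by mitochondrial DNA are not analysed here.

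The summed FPKM of a library ran between 424207 and 549490, and the number of reads behind it is unknown. Markers of the proximal tubule were present in every sham group. Their summed level was 1089 to 2857 FPKM in UIR and 2712 to 3198 in sham kidneys at day 1. It was 364 to 521 in UIR and 7306 to 7580 in sham kidneys at day 3, and 85.4 to 413 in UIR and 6972 to 8225 in sham kidneys at day 21. All 12 of these markers were lower at days 3 and 21, with median log2 differences of -4.15 and -4.87, and 5 of 12 at day 1. Macrophage markers were higher in 10 of 10 cases at days 3 and 21, with summed levels of 346 to 844 FPKM in UIR and 58.8 to 67.2 in sham kidneys at day 3, and of 3439 to 4826 in UIR and 55.9 to 69.2 in sham kidneys at day 21. Fibroblast markers were higher in 9 of 9 cases at both days, and endothelial markers in 7 of 8 at day 21. Of 10 markers of the thick limb and distal tubule, 5, 6 and 6 were lower at the 3 successive days and 1, 1 and 2 higher. Among all 14716 genes tested, 31.1%, 17.9% and 20.1% were called lower and 28.5%, 57.6% and 60.7% higher at days 1, 3 and 21; the marker counts are to be read against these shares. In whole kidney tissue, fewer tubule cells and less RNA of these genes per cell cannot be told apart, and the part of cell type proportions in the results below was not tested.

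As a share of all FPKM, the summed members made up 3.32% ± 0.41, 2.43% ± 0.09 and 1.93% ± 0.09 of UIR libraries at the 3 successive days (SD, n = 3). In sham libraries the share was 3.54% ± 0.16, 4.95% ± 0.23 and 4.40% ± 0.14. The UIR and sham ranges overlapped at day 1 and were separate at days 3 and 21. At day 1 the mean sum of complex II in UIR kidneys was 74.7% of that in sham kidneys and that of complex I 86.4%, while complexes III, IV and V stood at 94.2%, 100.0% and 98.4%. At day 3 the 5 complexes lay between 36.3% (complex III) and 46.9% (complex V), and at day 21 between 31.4% (complex II) and 40.9% (complex IV).

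**Figure D1:**
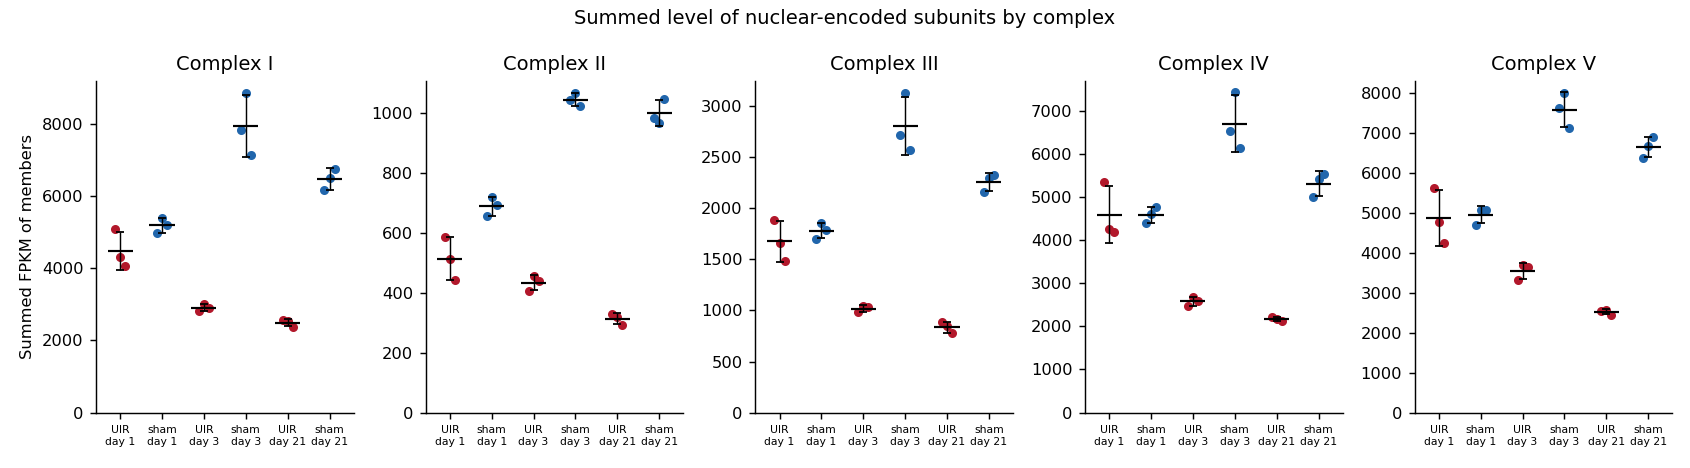
Summed FPKM of the members of each complex in each library; points are libraries (red UIR, blue sham), black lines the mean and error bars the SD of 3 libraries. The UIR and sham points are separate in every complex at days 3 and 21, and sham kidneys at day 1 lie below the later sham kidneys.

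At day 3 almost the whole set was lower in UIR kidneys: 77 of 81 members were called lower and 1 higher (limma over all genes, Benjamini-Hochberg adjusted p at most 0.05), where 17.9% of the 14716 genes tested were called lower and 57.6% higher. The median log2 difference of the members was -1.31, that is 0.403 times the sham level on the log2(FPKM + 1) scale, and that of all genes was 0.44. Of the 77 genes, 62 were lower by at least 2-fold. In 76 members all 3 UIR libraries lay below all 3 sham libraries and in 1 above them, where 19.4% and 59.3% of all genes did so. Among the 78 members at 1 FPKM or more in every library, 76 were lower and none was higher. FPKM is a relative measure, and the position of the all-gene median depended on the scaling. With median-of-ratios scaling the all-gene median was 0.03 and the members' median -1.85, with 5195 genes higher and 4939 lower in place of 8470 and 2634. With quantile normalization the members' median was -1.03 against 0.01 for all genes, and with rescaling of every library to 1 total (TPM) -1.04 against 0.75. The members called lower numbered 75 to 78 under these 3 scalings.

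In complex I, 36 of 37 members were lower at day 3, with a median of -1.39. The nuclear core subunits, which carry the flavin and iron-sulfur clusters or the quinone site, were lower in 7 of 7 cases (median -1.24), and the accessory subunits in 28 of 28 (median -1.43). Ndufv3, an accessory subunit of the NADH-binding module, had 73.7, 73.4 and 66.0 FPKM in UIR kidneys, against 307, 377 and 276 FPKM in sham kidneys (log2 difference -2.15 ± 0.12 SE, limma adjusted p = 3.53e-10). Ndufa1, an accessory subunit of the membrane arm, had 36.3, 37.8 and 37.6 FPKM in UIR kidneys, against 153.0, 169.6 and 123.3 FPKM in sham kidneys (-1.96 ± 0.11, limma adjusted p = 2.92e-10). In both genes the highest UIR library was far below the lowest sham library. Ndufa4l2, a relative of Ndufa4 known from hypoxic cells as a target of HIF-1, was the gene under the complex I prefix that went the other way. It had 11.8, 8.91 and 5.18 FPKM in UIR kidneys, against 4.03, 5.15 and 3.86 FPKM in sham kidneys (0.79 ± 0.25, limma adjusted p = 0.0096), and its lowest UIR library was only just above its highest sham library. Without UIR replicate 1 the call ended (0.56, limma adjusted p = 0.0646). Relative to the all-gene median this was a small excess: with median-of-ratios scaling the log2 difference was 0.34 (limma adjusted p = 0.242) and with quantile normalization 0.20 (0.528).

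In complex II, all 4 members were lower at day 3, and by unequal amounts. Sdhb, the iron-sulfur subunit that passes electrons on to the quinone site, had 90.8, 99.9 and 89.1 FPKM in UIR kidneys, against 335, 399 and 322 FPKM in sham kidneys (-1.90 ± 0.12, limma adjusted p = 6.66e-10). Sdhd, a membrane anchor, had 81.4, 91.6 and 90.6 FPKM in UIR kidneys, against 136.2, 123.01 and 135.9 FPKM in sham kidneys (-0.58 ± 0.09, limma adjusted p = 3.58e-05). The groups did not overlap in either gene, and the gap was much wider in Sdhb. Sdha, the flavoprotein, and Sdhc, the other anchor, lay between them, at -1.14 ± 0.12 and -1.15 ± 0.10.

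In complex III, all 8 members were lower by at least 2-fold at day 3, between -1.02 (Uqcrc1, a core protein) and -1.83 (Uqcrb, a small subunit near the quinone site). Uqcrb had 156, 184 and 185 FPKM in UIR kidneys, against 613, 747 and 532 FPKM in sham kidneys (limma adjusted p = 4.27e-09). Uqcrc1 had 126, 129 and 132 FPKM in UIR kidneys, against 267.3, 269.0 and 251.01 FPKM in sham kidneys (limma adjusted p = 9.90e-08). Uqcr11, another small subunit, was second lowest at -1.54 ± 0.13 (limma adjusted p = 2.38e-08). In complex IV, 12 of 15 members were lower and none higher; the highest was Cox4i2 at 0.23 ± 0.19 (limma adjusted p = 0.275). The 10 ubiquitous subunits were all lower (median -1.41), among them Cox6c with 116, 137 and 142 FPKM in UIR kidneys, against 542, 682 and 546 FPKM in sham kidneys (-2.15 ± 0.14, limma adjusted p = 1.75e-09). Cox7a2l, present at 105 to 161 FPKM in all 18 libraries, was counted apart from these 10 and was not called (-0.05 ± 0.09, limma adjusted p = 0.658). The largest log2 difference of any member was that of Cox7a1, the isoform of heart and skeletal muscle, with 2.36, 2.84 and 3.06 FPKM in UIR kidneys, against 17.96, 19.09 and 18 FPKM in sham kidneys (-2.37 ± 0.35, limma adjusted p = 1.42e-05). Its level is low beside that of its ubiquitous counterpart Cox7a2, at 78.5 to 86.3 FPKM in UIR and 251.1 to 287 FPKM in sham kidneys.

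In complex V, 17 of 17 members were lower at day 3, though with 10 of them past 2-fold. The lowest were Atp5h, the d subunit of the peripheral stalk, at -1.49 ± 0.11, and Atp5j2, the f subunit of the membrane part, at -1.43 ± 0.10 (limma adjusted p = 4.84e-09 and 4.34e-09). Atp5h had 186, 186 and 185 FPKM in UIR kidneys, against 518, 615 and 447 FPKM in sham kidneys, with no overlap. The 5 subunits of the catalytic F1 head had a median of -0.94, and the 7 stalk and membrane subunits one of -1.36.

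**Figure D2:**
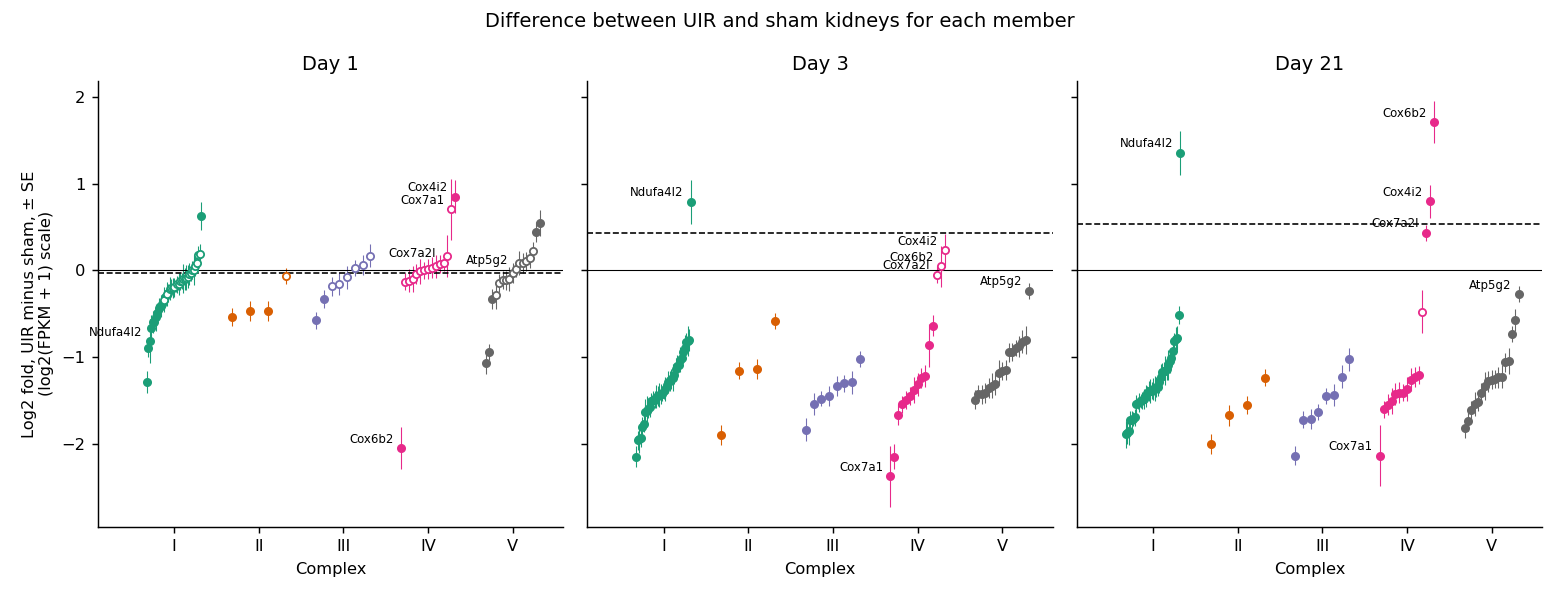
Log2 difference between UIR and sham kidneys (y axis, log2(FPKM + 1) scale, ± SE) of each of 81 members, ordered by value within complexes I to V, at days 1, 3 and 21. Filled points have a limma adjusted p of at most 0.05; the dashed line is the median of all 14716 genes tested (-0.03, 0.44 and 0.53). Most members lie between -0.5 and -2.2 at days 3 and 21, and the labelled isoforms stand apart. Under another scaling the sign turned for Atp5g2 at days 3 and 21 and for Cox7a2l and Cox4i2 at day 21.

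At day 21 the difference was still present: 76 of 81 members were lower and 4 higher, where 20.1% of all genes were called lower and 60.7% higher, and 68 members were lower by at least 2-fold. The members' median was -1.37 and that of all genes 0.53. The members' median was -1.99 with median-of-ratios scaling, against 0.03 for all genes (5650 higher and 5424 lower in place of 8934 and 2951), and 75 to 77 members were lower under the 3 scalings. All 3 UIR libraries lay below all 3 sham libraries in 76 members and above them in 4, where 21.5% and 62.8% of all genes did so. The lowest member of complex III was Uqcrfs1, the Rieske iron-sulfur protein, with 47.9, 45.8 and 38.2 FPKM in UIR kidneys, against 194, 194 and 198 FPKM in sham kidneys (-2.13 ± 0.11, limma adjusted p = 8.01e-11). Atp5b, the catalytic beta subunit and the member with the highest mean FPKM, had 437, 456 and 387 FPKM in UIR kidneys, against 1462, 1533 and 1516 FPKM in sham kidneys (-1.82 ± 0.11, limma adjusted p = 3.04e-10). Neither gene showed any overlap between groups. Ndufs1, the large core subunit of complex I with several iron-sulfur clusters, had 28.3, 26.8 and 21.7 FPKM in UIR kidneys, against 103, 97.9 and 90.5 FPKM in sham kidneys (-1.89 ± 0.16, limma adjusted p = 1.36e-08). Sdhb stood at -2.003 ± 0.12, Sdha at -1.67 ± 0.12, Sdhc at -1.55 ± 0.10 and Sdhd at -1.23 ± 0.09, each called lower. The other members at the low end of their complexes were Ndufv3 (-1.87 ± 0.12), Uqcrc2 (-1.72 ± 0.10), Cox7a1 (-2.13 ± 0.35), Cox6a1 (-1.60 ± 0.10) and Atp5g3 (-1.74 ± 0.12). The highest of complex III was Uqcrh, the hinge protein that helps cytochrome c bind, at -1.02 ± 0.13. The 4 members called higher at day 21 were Ndufa4l2, Cox4i2, Cox6b2 and Cox7a2l, and Cox6a2 was the member that passed no call (-0.47 ± 0.24, limma adjusted p = 0.0853).

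At day 1 fewer members were called than at days 3 and 21. Of 81 members 23 were lower and 4 higher, close to or below the 31.1% and 28.5% of all genes, and the members' median was -0.11 with an all-gene median of -0.03. All 3 UIR libraries lay below all 3 sham libraries in 21 members and above them in 8, where 31.7% and 29.5% of all genes did so. Of the 23 lower members 14 were among the 37 of complex I and 3 among the 4 of complex II; differences between complexes were not tested. The nuclear core subunits of complex I were lower in 5 of 7 cases with a median of -0.54, while none of the 10 ubiquitous subunits of complex IV passed the test and their values ran between -0.13 and 0.08. Ndufs7, a core subunit at the quinone site, had 59.1, 41.5 and 51.7 FPKM in UIR kidneys, against 106, 151 and 119 FPKM in sham kidneys (-1.29 ± 0.13, limma adjusted p = 5.70e-07). Ndufb3, an accessory membrane subunit, had 67.9, 68.7 and 67.5 FPKM in UIR kidneys, against 130, 124 and 129 FPKM in sham kidneys (-0.90 ± 0.10, limma adjusted p = 1.41e-06). Both genes were separate between groups. Sdha, Sdhb and Sdhc were lower by 0.46 to 0.54 on the log2 scale, and Sdhd was at -0.06 ± 0.09 (limma adjusted p = 0.575). Uqcrc1 and Uqcrc2, the core proteins of complex III, were lower (-0.57 ± 0.10 and -0.33 ± 0.10); without UIR replicate 3 the value for Uqcrc2 was -0.21 (limma adjusted p = 0.0549). In complex V, Atp5s and Atp5sl were lower (-1.06 ± 0.13 and -0.94 ± 0.09); Dmac2, the present name of Atp5sl, is known in human cells for assembly of complex I.

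The 4 members higher at day 1 were Ndufc1 (0.63 ± 0.16, limma adjusted p = 0.0030), Cox4i2 (0.85 ± 0.19, 0.0012), Atp5e (0.55 ± 0.15, 0.0047) and Atp5k (0.44 ± 0.12, 0.0041), the last named after its values were seen. Ndufc1, a small accessory subunit of complex I, had 109, 112 and 88.3 FPKM in UIR kidneys, against 59.9, 71.6 and 66.7 FPKM in sham kidneys. At day 3 it had 40.0, 47.1 and 47.4 FPKM in UIR kidneys, against 187, 218 and 133 FPKM in sham kidneys. Its groups were thus separate in opposite directions on the 2 days.

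In the summed FPKM of the members, UIR libraries of day 1 varied more among themselves than UIR libraries of other days. The members summed to 18519, 15523 and 14407 FPKM in UIR replicates 1, 2 and 3, against 16454, 17645 and 17537 FPKM in sham replicates 1, 2 and 3. The proximal tubule markers summed to 2857, 2137 and 1089 FPKM in the same UIR libraries, in the same order. Without UIR replicate 1, 34 members were lower, with a median of -0.23; without UIR replicate 3, 18 were lower, with a median of -0.01. The part of the tubule markers in this spread was not tested.

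The day 1 comparison also rests on a control group that stood apart. In sham kidneys at day 1, 70 of 81 members were lower than in the mean of sham kidneys at days 3 and 21 and 1 was higher, where 14.1% of all genes were lower and 31.9% higher. The median was -0.46 for the members and 0.11 for all genes. Atp5k, the e subunit of the membrane part, had 77.9, 104 and 95.1 FPKM in sham kidneys at day 1, against 243, 230 and 199 FPKM at day 3 and 156, 174 and 174 FPKM at day 21 (-1.07 ± 0.10, limma adjusted p = 6.51e-07). Ndufc1 was lower by 1.13 ± 0.14 on the log2 scale (limma adjusted p = 8.72e-06). In the same contrast 8 of 12 proximal tubule markers were lower (median -1.13), 4 of 5 neutrophil markers tested were higher (median 2.43) and 5 of 6 tubular injury genes were higher (median 3.39). What set the sham kidneys of day 1 apart was not tested. Set against the sham kidneys of days 3 and 21, UIR kidneys at day 1 had 74 members lower and 1 higher, where 32% of all genes were lower and 39.6% higher, with medians of -0.61 for the members and 0.06 for all genes. Of the 4 members called higher at day 1, 3 then had the opposite sign: Atp5k stood at -0.63 (limma adjusted p = 3.95e-05), Ndufc1 at -0.50 (0.0044) and Atp5e at -0.23 (0.125). Cox4i2 stood at 0.85 (limma adjusted p = 2.38e-04).

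**Figure D3:**
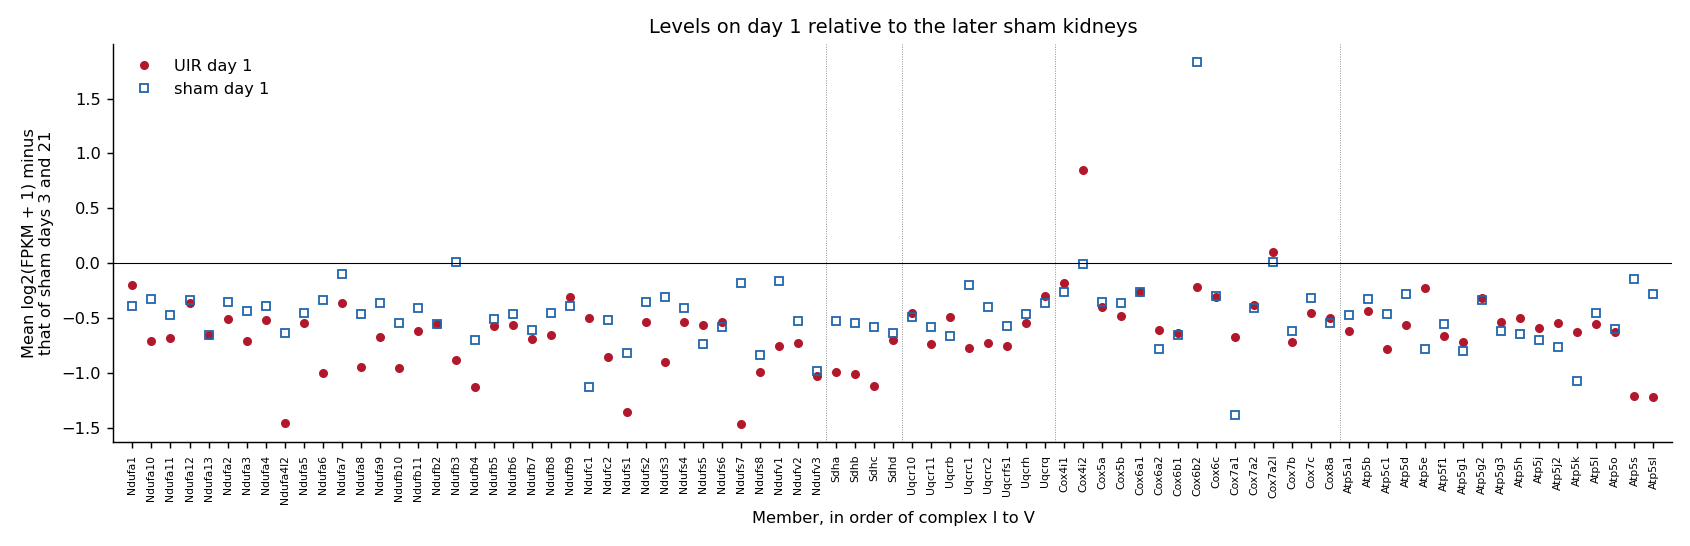
Mean log2(FPKM + 1) of each member in UIR (red circles) and sham kidneys (blue squares) at day 1, minus the mean of sham kidneys at days 3 and 21 (n = 3 per group). Nearly all points of both groups lie below 0; Cox6b2 in sham (1.83) and Cox4i2 in UIR kidneys (0.85) lie farthest above it.

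The difference between UIR and sham kidneys was itself larger at day 3 than at day 1. For 72 members the UIR effect was lower at day 3 than at day 1, and for 2 it was higher, where 12.7% and 50.1% of all genes were called in these directions. The members' median change was -1.11. All 10 ubiquitous subunits of complex IV took part (median -1.34), as did all 7 stalk and membrane subunits of complex V (median -1.53). Of the 7 core subunits of complex I, 6 were called (median -0.70), and Ndufs7 was not (0.18 ± 0.19, limma adjusted p = 0.406). Set directly against UIR kidneys at day 1, UIR kidneys at day 3 were lower in 59 members and higher in 5 (17.1% and 49.4% of all genes), with a median of -0.52, so that the sham groups supply part of the larger change in the effect. The largest decrease was that of Cox6c, which had 116, 137 and 142 FPKM in UIR kidneys at day 3, against 488, 426 and 328 FPKM in UIR kidneys at day 1 (-1.63 ± 0.14, limma adjusted p = 9.49e-08).

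Over the 3 days, 21 members were lower at every day, and 76 were lower at both day 3 and day 21. Of those 76, 52 passed no test at day 1, and 3 were higher at day 1. The share of all genes with the same paths was not counted. At the single days 1, 3 and 21, 31.1%, 17.9% and 20.1% of all genes were called lower. The day 1 part of these counts rests on the sham kidneys of day 1. Against the later sham kidneys, 74 members were lower at day 1.

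Between days 3 and 21 the UIR effect of most members did not pass the test. It was lower in 15 and higher in 7, where 20.2% and 26.1% of all genes were called, with a median of 0.06 for the members and for all genes. By role, the core proteins and the Rieske protein of complex III went down further in 3 of 3 cases, led by Uqcrfs1 (-0.80 ± 0.16, limma adjusted p = 7.10e-04). In complex II 3 of 4 members did so too: the anchors Sdhd (-0.66 ± 0.13) and Sdhc (-0.40 ± 0.15) and the flavoprotein Sdha (-0.54 ± 0.16). Sdhb was not called (-0.10 ± 0.16, limma adjusted p = 0.639). Ndufs1 of complex I also went down further (-0.65 ± 0.22). In the F1 head Atp5b changed by -0.88 ± 0.15 (limma adjusted p = 2.70e-04) and Atp5a1, the alpha subunit, by -0.66 ± 0.14. Cox5a, which carries no cofactor and sits on the matrix side of complex IV, changed by -0.77 ± 0.17 (limma adjusted p = 0.0014). It had 81.9, 84.2 and 80.1 FPKM in UIR kidneys at day 21, against 146, 162 and 173 FPKM in UIR kidneys at day 3. The effect was smaller at day 21 in Uqcrb (0.61 ± 0.19), Ndufa13 (0.46 ± 0.15) and Atp5h (0.43 ± 0.15). Ndufa13 and Atp5h missed the threshold with median-of-ratios scaling. With 1 of the 12 libraries of these groups left out, the call ended in 7 cases for Sdhc, 7 for Atp5h, 5 for Ndufs1 and 4 for Ndufa13, with limma adjusted p between 0.0514 and 0.098 and the same sign. In UIR kidneys alone, day 21 was lower than day 3 in 34 members and higher in 3 (24% and 32.2% of all genes), with a median of -0.25.

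**Figure D4:**
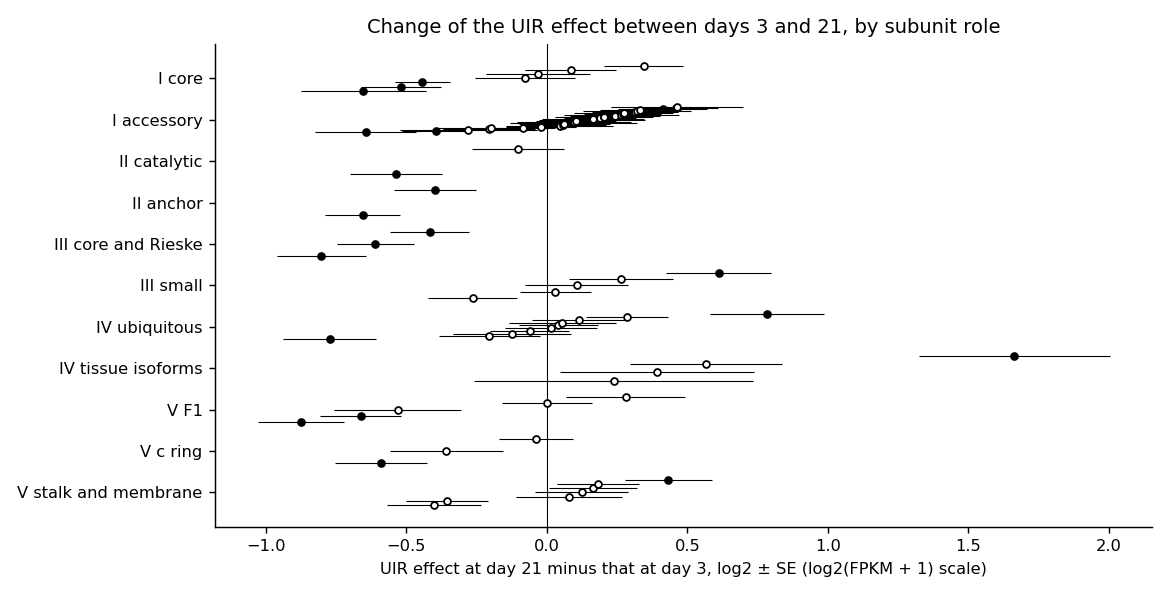
UIR effect at day 21 minus that at day 3 (x axis, log2(FPKM + 1) scale, ± SE) of the members, in rows by subunit role; filled points have a limma adjusted p of at most 0.05. The points of all 4 complex II members and of the complex III core and Rieske proteins lie left of 0, and the accessory subunits of complex I on both sides.

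Most of the members are short transcripts, and the order of their differences was related to length. By GENCODE transcripts the median length was 755 nucleotides for the members and 2716 for the 14544 genes tested that had a length. Across the 81 members, Spearman's rho between length and the log2 difference over the 3 days was -0.45, 0.27 and -0.31, against 0.10, 0.24 and 0.13 across all genes. For the change of the effect between days 3 and 21 it was -0.46 in the members and -0.12 in all genes. Genes are not independent replicates and all points share the same libraries, so these values are descriptions; the part of RNA quality or library preparation was not tested.

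Several subunits exist in more than one isoform, and there the families shifted in composition. The c subunit, which forms the rotating ring of ATP synthase, is encoded by Atp5g1, Atp5g2 and Atp5g3. Their mature proteins are known to be identical, and the genes differ in their import peptides. Atp5g2 had 206, 244 and 241 FPKM in UIR kidneys at day 3, against 283, 280 and 248 FPKM in sham kidneys (-0.23 ± 0.09, limma adjusted p = 0.0316), and 171, 183 and 203 FPKM in UIR kidneys at day 21, against 215, 216 and 241 FPKM in sham kidneys (-0.27 ± 0.09, limma adjusted p = 0.0132). The groups did not overlap but lay close together. The call at day 3 ended without UIR replicate 1, sham replicate 1 or sham replicate 2 (-0.15, -0.20 and -0.21), and that at day 21 without UIR replicate 1 or sham replicate 3 (-0.21 and -0.22). Atp5g3 had 152, 154 and 134 FPKM in UIR kidneys at day 21, against 470, 492 and 510 FPKM in sham kidneys (-1.74 ± 0.12, limma adjusted p = 1.03e-09). Atp5g1 stood at -1.18 ± 0.14 at day 3 and -1.54 ± 0.14 at day 21. Of the summed FPKM of the 3 genes, Atp5g2 supplied 26.0% ± 3.7, 35.4% ± 0.9 and 43.0% ± 3.0 in UIR kidneys of the 3 successive days (SD, n = 3). In sham kidneys it supplied 26.8% ± 0.9, 22.4% ± 1.3 and 22.3% ± 0.7. This share is a ratio within a library and is free of a common scaling factor, while the small difference of Atp5g2 itself was not: at day 3 it was 0.0509 as TPM (limma adjusted p = 0.585) and 0.22 after quantile normalization (0.033). At day 21 it was 0.10 after quantile normalization.

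The promoters of Atp5g2 and Atp5g1 are shown because these genes differ both in response and in the letters searched for below. The sequences are the RefSeq windows of build GRCm38.p6, 250 bases before to 50 after the gene start. Capitals mark GCGCATGCGC, the palindromic site of the factor NRF1. The Atp5g2 window is chr15:102670998-102671297 and the Atp5g1 window chr11:96075582-96075881, both on the minus strand.
Atp5g2: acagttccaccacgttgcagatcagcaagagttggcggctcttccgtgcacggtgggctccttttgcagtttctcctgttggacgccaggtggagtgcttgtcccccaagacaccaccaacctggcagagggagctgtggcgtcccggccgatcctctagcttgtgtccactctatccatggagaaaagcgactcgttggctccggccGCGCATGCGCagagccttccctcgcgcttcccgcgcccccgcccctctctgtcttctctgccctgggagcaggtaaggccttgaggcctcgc
Atp5g1: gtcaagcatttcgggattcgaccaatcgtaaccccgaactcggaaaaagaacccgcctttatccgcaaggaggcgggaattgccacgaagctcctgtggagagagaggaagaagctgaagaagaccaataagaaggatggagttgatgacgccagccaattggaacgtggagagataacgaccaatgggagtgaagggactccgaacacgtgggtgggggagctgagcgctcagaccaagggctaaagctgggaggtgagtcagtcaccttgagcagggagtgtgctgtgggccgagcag

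Cytochrome c oxidase has tissue isoforms too, and a related gene, Cox7a2l, which had 105 to 161 FPKM in all 18 libraries. Cox7a2l, also called SCAF1, is known as a factor that links complexes III and IV in supercomplexes. It had 111, 115 and 117 FPKM in UIR kidneys at day 3, against 134, 106 and 117 FPKM in sham kidneys (-0.05 ± 0.09, limma adjusted p = 0.658), with overlapping groups. At day 21 it had 150, 142 and 161 FPKM in UIR kidneys, against 105, 125 and 105 FPKM in sham kidneys (0.44 ± 0.09, limma adjusted p = 4.84e-04). This rise was below the all-gene median of 0.53, and with median-of-ratios scaling the value was -0.18 (limma adjusted p = 0.109). Over the 3 days, its share of the summed FPKM of Cox7a1, Cox7a2 and Cox7a2l was 39.7% ± 4.7, 57.1% ± 0.8 and 68.0% ± 2.0 in UIR kidneys, against 39.2% ± 0.9, 29.4% ± 3.4 and 34.1% ± 1.7 in sham kidneys.

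Cox6b2, the testis isoform of Cox6b1, changed direction between days. At day 1 it had 3.96, 4.48 and 8.29 FPKM in UIR kidneys, against 18.9, 31.3 and 26.8 FPKM in sham kidneys (-2.05 ± 0.24, limma adjusted p = 2.55e-06). At day 3 the groups overlapped, with 8.28, 8.25 and 6.65 FPKM in UIR and 8.34, 9.32 and 5.19 FPKM in sham kidneys. At day 21 it had 24.6, 18.8 and 17.0 FPKM in UIR kidneys, against 4.72, 6.20 and 5.35 FPKM in sham kidneys (1.71 ± 0.24, limma adjusted p = 6.34e-06). The sham kidneys of day 1 were again the group apart, 1.83 ± 0.21 above the later sham kidneys (limma adjusted p = 3.92e-06), and against those later sham kidneys UIR kidneys at day 1 stood at -0.22 (limma adjusted p = 0.369). Ndufa4l2 made up 5.90% ± 1.22 of the summed FPKM of Ndufa4 and Ndufa4l2 in UIR kidneys at day 21, against 0.648% ± 0.019 in sham kidneys, and had 11.8, 12.4 and 14.4 FPKM in UIR and 4.23, 4.51 and 4.44 FPKM in sham kidneys (1.36 ± 0.25, limma adjusted p = 1.19e-04). At day 1 it was lower, with 0.93, 0.34 and 1.89 FPKM in UIR and 2.21, 3.15 and 2.04 FPKM in sham kidneys (-0.81 ± 0.25, limma adjusted p = 0.0112). That call ended without UIR replicate 2 or sham replicate 2 (-0.54 and -0.68). Cox4i2, the isoform of lung known to respond to low oxygen, had between 0.54 and 2.84 FPKM in every library, with 1.71, 1.44 and 2.84 FPKM in UIR kidneys at day 21 and 1.00, 0.56 and 0.54 FPKM in sham kidneys (0.80 ± 0.19, limma adjusted p = 0.0011). The call ended with quantile normalization, where the value was -0.0918 (limma adjusted p = 0.689).

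**Figure D5:**
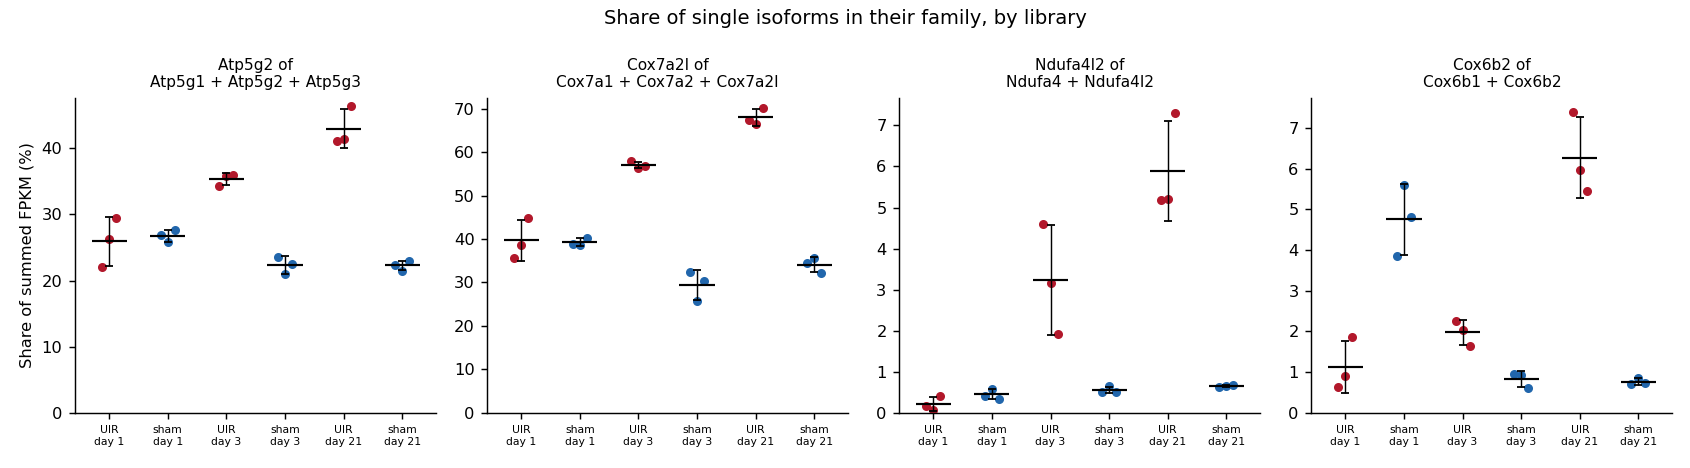
Share (%, y axis) of Atp5g2, Cox7a2l, Ndufa4l2 and Cox6b2 in the summed FPKM of their family in each library (red UIR, blue sham); black lines are means and error bars the SD of 3 libraries. UIR points lie above sham points at days 3 and 21 in all 4 panels, and Cox6b2 is high in sham kidneys of day 1.

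The proteins that build and surround these complexes were taken from separate lists, whose counts stand beside 31.1%, 17.9% and 20.1% of all genes called lower and 28.5%, 57.6% and 60.7% called higher at days 1, 3 and 21. Of 43 assembly factors tested 24 were lower and 2 higher at day 1, 28 lower and 3 higher at day 3, and 36 lower and 1 higher at day 21. Their medians were -0.30, -0.46 and -0.52, nearer 0 than those of the subunits at days 3 and 21; this difference between lists was not tested. The lowest at day 21 were Ndufaf6 (-1.80), Ecsit (-1.69), Nubpl (-1.32) and Ndufaf1 (-1.20), all for complex I. The mobile carriers and subunits with other symbols were lower in 6, 8 and 9 of 10 cases at the 3 days and higher in 2, 0 and 0. Their medians were -0.33, -1.02 and -1.68. Among them cytochrome c (Cycs) stood at 0.42 at day 1, -1.39 at day 3 and -1.92 at day 21, and the electron transfer flavoproteins Etfa and Etfb at -2.17 and -2.29 at day 21. Coenzyme Q synthesis was lower in 8, 10 and 11 of 12 genes and higher in 2, 1 and 0, with medians of -0.52, -0.66 and -0.75. The lowest at day 21 were Adck3 (-2.51), Coq9 (-2.11) and Pdss1 (-1.66). Genes of mitochondrial membranes, import and channels were lower in 7, 11 and 20 of 22 cases and higher in 1, 1 and 0, with medians of -0.07, -0.23 and -0.78. Their day 1 count of lower genes is close to the share of all genes. Hspd1, the matrix chaperonin, stood at 1.09 at day 1, -0.64 at day 3 and -2.14 at day 21.

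Regulators of these genes did not move as one. Of 19 tested, 12 were lower and 4 higher at day 1, 7 lower and 5 higher at day 3, and 12 lower and 4 higher at day 21. Ppara, the fatty acid receptor that drives oxidation genes, stood at -1.52, -2.08 and -2.87 at days 1, 3 and 21. The estrogen-related receptors Esrra and Esrrb, which bind promoters of oxidative genes, stood at -1.23 and -1.57 at day 21, and Lrpprc, which stabilises mitochondrial messenger RNA, at -1.45. Some activators went the other way, named after their values were seen: Nrf1 stood at 0.63, 1.12 and 0.82, Gabpb1 at 1.08, 0.79 and 0.70 and Pprc1, a relative of PGC-1, at 0.83, 2.02 and 1.37, all called higher. At days 3 and 21 most genes were called higher, with all-gene medians of 0.44 and 0.53, and Nrf1 and Gabpb1 at day 21 lay not far above it. Ppargc1a, which encodes PGC-1 alpha, was lower at days 1 and 21 (-0.91 and -0.62) and passed no call at day 3 (-0.40). Of 9 genes of uncoupling and of glucose use tested, 4 were lower and 2 higher at day 1. At day 3, 3 were lower and 3 higher, and at day 21, 4 were lower and 2 higher. These counts are to be read against the shares of all genes given above. Hk2 was higher at the 3 days (2.25, 3.08 and 2.72), and Ucp2 was lower at day 1 (-1.37) and higher at days 3 and 21 (1.25 and 2.65). At day 21 both went against the direction of most called genes of this list.

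Promoters of the members were searched for the letters of 4 factors known to act on respiratory genes, on both strands, in RefSeq windows that 67 of 81 members had. The NRF1 letters GCGCATGCGC were in 5 members (7.46%: Ndufa11, Uqcrc1, Cox6a1, Atp5g2 and Atp5k), against 1.07% of all 27025 genes with a window and 2.09% of those tested. AAGATGGC, the letters of YY1, were in 11 members (16.4%), against 3.19% and 4.85%. CCGGAAG, bound by GABP and other ETS factors, was in 16 (23.9%), against 9.93% and 18.4%. AAGGTCA, the core site of the estrogen-related receptors, was in 8 (11.9%), against 5.38% and 4.22%. No motif contains another. These matches are descriptions and not binding sites. Atp5k and Cox6a1 hold several of the motifs, and Sdhb is the complex II member that fell most, so their windows are shown, with each match in capitals. They are chr5:108434350-108434649 (Atp5k, minus strand), chr5:115348909-115349208 (Cox6a1, minus strand) and chr4:140961021-140961320 (Sdhb, plus strand). The capitals mark NRF1, ETS (as CTTCCGG, on the other strand) and receptor letters in Atp5k, NRF1 and ETS letters in Cox6a1, and ETS letters in Sdhb.
Atp5k: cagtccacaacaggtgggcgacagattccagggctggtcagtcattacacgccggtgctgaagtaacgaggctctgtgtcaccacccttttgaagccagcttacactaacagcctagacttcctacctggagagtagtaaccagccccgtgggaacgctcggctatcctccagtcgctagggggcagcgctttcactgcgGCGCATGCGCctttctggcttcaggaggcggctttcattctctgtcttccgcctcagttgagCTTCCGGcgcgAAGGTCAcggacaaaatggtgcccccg
Cox6a1: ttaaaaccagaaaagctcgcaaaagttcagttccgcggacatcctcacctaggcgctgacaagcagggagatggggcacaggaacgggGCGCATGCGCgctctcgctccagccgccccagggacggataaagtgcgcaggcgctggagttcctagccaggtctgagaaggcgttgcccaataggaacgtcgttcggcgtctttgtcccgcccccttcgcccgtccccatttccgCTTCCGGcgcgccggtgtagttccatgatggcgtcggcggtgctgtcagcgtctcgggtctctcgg
Sdhb: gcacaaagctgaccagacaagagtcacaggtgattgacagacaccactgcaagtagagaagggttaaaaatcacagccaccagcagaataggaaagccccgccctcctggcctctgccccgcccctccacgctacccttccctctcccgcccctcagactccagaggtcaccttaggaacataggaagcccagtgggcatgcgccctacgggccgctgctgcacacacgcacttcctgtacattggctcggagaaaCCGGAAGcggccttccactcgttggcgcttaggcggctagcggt
Among the 5 members with the NRF1 letters, the log2 difference at day 3 varied: Atp5g2 stood at -0.23, Ndufa11 at -0.94, Uqcrc1 at -1.02, Atp5k at -1.36 and Cox6a1 at -1.54.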

How the data were processed

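RNA sequencing of mouse kidney was deposited as a table of FPKM values for 20825 genes in 18 libraries. The submitters' processing notes name RSEM 1.2.12, HISAT2 2.0.4 and Bowtie2 2.2.5 with build mm9, and not the role of each. The sources used here do not say how the authors treated reads shared with near-identical copies, such as the processed pseudogenes many of these genes have, so the deposited FPKM of such genes are uncertain to that extent. Symbols stored as dates (27) were restored through gene IDs, and 20766 IDs matched the RefSeq table. No read depth can be had from FPKM, intervals for counting error are therefore left out, and n = 3 limits precision.

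Genes with at least 1 FPKM in at least 3 libraries (14716) were analysed as log2(FPKM + 1), which understates changes of low genes. limma 3.58.1 (R 4.3.3, variance trend) fitted 6 group means to 18 libraries, and contrasts were tested two-sided with Benjamini-Hochberg adjustment over all genes, threshold 0.05. The procedure was tested on simulated data. With 3 libraries a side, the smallest p of an exact two-sided permutation test is 0.1. Levels are FPKM per library or mean ± SD, and log2 differences ± SE. No library pair was identical. The p-values measure the spread between libraries labelled as biological replicates.

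Members, lists and subunit roles were chosen with earlier results of these data known. Names were drawn in each UIR and sham comparison from the 2 lowest and the highest members per complex, the Sdh genes and the isoform families, and between days from the extremes past the threshold, without printing every one; of other lists, at most 4 genes, those past the threshold that moved farthest the way most did. Other names were chosen after their values were seen. Alternatives were the pseudocount, the filter, 3 scalings, the replicate block, fits of fewer groups, left-out libraries and later sham controls. Files use mm9 and RefSeq sequences GRCm38.p6, so no gene coordinates of the files are given.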

Additional observations from a re-analysis of the deposited data

Results flagged for a closer look

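Members named by the rule whose UIR effect differed between days by limma's test of that difference (adjusted p at most 0.05) are listed here, with log2 values as the effect at the later day minus that at the earlier day. From day 1 to day 3 the effect changed by -2.58 for Ndufc1, -1.44 for Sdhb, -0.51 for Sdhd, -2.0 for Uqcrb, -0.45 for Uqcrc1, -3.08 for Cox7a1, -1.88 for Atp5e and -0.80 for Atp5a1. It changed by 1.61 for Ndufa4l2 and by 2.09 for Cox6b2. These values contain the day 1 sham kidneys, in which 70 members were lower than in later sham kidneys. Some of these calls ended under other scalings. As TPM, Sdhd stood at -0.23 (limma adjusted p = 0.157) and Uqcrc1 at -0.16 (0.273). With quantile normalization, Sdhd stood at -0.21 (limma adjusted p = 0.179), Uqcrc1 at -0.0324 (0.851) and Atp5a1 at -0.40 (0.0555).

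From day 3 to day 21 the effect changed by -0.65 for Ndufs1, -0.66 for Sdhd, -0.40 for Sdhc, -0.80 for Uqcrfs1, -0.77 for Cox5a and -0.88 for Atp5b. It changed by 0.46 for Ndufa13, 0.61 for Uqcrb, 1.66 for Cox6b2 and 0.43 for Atp5h. The values for Ndufa13 and Atp5h missed the threshold with median-of-ratios scaling (0.37, limma adjusted p = 0.0668, and 0.35, 0.123). That of Sdhc missed it with the replicate block (-0.40, 0.0516). Some calls also ended with 1 library left out. For Sdhc these were UIR replicates 2 and 3 of day 3, UIR replicates 1 and 3 of day 21, sham replicates 1 and 3 of day 3 and sham replicate 3 of day 21 (values between -0.40 and -0.31). For Atp5h they were UIR replicates 1, 2 and 3 of day 3, UIR replicate 1 of day 21, sham replicate 2 of day 3 and sham replicates 1 and 2 of day 21 (0.31 to 0.43). For Ndufs1 they were UIR replicates 2 and 3 of day 3, UIR replicate 3 of day 21, sham replicate 2 of day 3 and sham replicate 1 of day 21 (values between -0.63 and -0.54), and for Ndufa13 UIR replicates 2 and 3 of day 3, sham replicate 2 of day 3 and sham replicate 1 of day 21 (0.38 to 0.42).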

How the results depend on the processing

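Counts of members called lower stayed within 1.5 times under every alternative except later sham kidneys as the day 1 control (74 lower and 1 higher, in place of 23 and 4). Small counts of members called higher moved. At day 3 (1 member) it was 2 as TPM, 0 with median-of-ratios scaling and 2 with quantile normalization. For the effect at day 3 minus day 1 (2) it was 5 as TPM. For the effect at day 21 minus day 3 (7) it was 4 with median-of-ratios scaling. For UIR kidneys at day 3 minus day 1 (5) it was 1 with median-of-ratios scaling, and at day 21 minus day 3 (3) it was 5 with quantile normalization. With 1 library left out, these counts ran from 0 to 1 at day 3, from 4 to 11 for the effect at day 21 minus day 3 and from 2 to 5 for UIR kidneys at day 21 minus day 3, where the 5 came without UIR replicate 1 of day 3 and the 2 without UIR replicate 2 of day 3 or 1 of day 21. The 11 came without sham replicate 3 of day 3, the 0 without UIR replicate 1 of day 3, and the 4 without UIR replicate 2 or 3 of day 3, sham replicate 2 of day 3 or sham replicate 1 of day 21. Signs turned for Atp5g2 at day 3 (0.0509 as TPM, 0.22 with quantile normalization) and at day 21 (0.10 with quantile normalization), Cox7a2l at day 21 (-0.18 with median-of-ratios scaling), Cox4i2 at day 21 (-0.0918) and Atp5s in UIR kidneys at day 3 minus day 1 (-0.0452), both with quantile normalization. They also turned for Atp5k (-0.63), Ndufc1 (-0.50) and Atp5e (-0.23) at day 1 with later sham kidneys as control. The causes were not tested. Same-numbered UIR and sham libraries showed correlations of their deviations between -0.07 and 0.11, with 2 of 9 over 0.1, so the numbers were not taken as pairs. With the replicate block 22 members were lower at day 1, 77 at day 3 and 76 at day 21, and 2 calls of named members were lost.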
